A study of Gasterosteus aculeatus with 227 samples.

Results

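The genes described here are igf1 and the insulin-like growth factor binding protein genes of the threespine stickleback (Gasterosteus aculeatus). They were taken from the deposited count tables by row name, as igf1 or as any igfbp gene numbered 1 to 7 with or without the letter a or b. The rule found 6 of the 25994 genes listed, igf1, igfbp1a, igfbp2a, igfbp3, igfbp5a and igfbp7. In a RefSeq gene table of the assembly fGasAcu3.hap1.1, 4 of the 6 were matched by symbol. There igf1 lies on chromosome 4 and igfbp3 on chromosome 8, while igfbp2a and igfbp5a are direct neighbours on chromosome 1. A further 2 rows listed under gene numbers carry the symbols igfbp2b and igfbp5b in that table and fall outside the rule.

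The fish were 40 females and 40 males of a wild population, caught in the reproductive season and given no treatment, and their age is not in the labels. Brain, gills and liver were sampled, and 227 libraries were made with QuantSeq FWD, which counts about 1 fragment from the 3' end of each polyadenylated transcript, so that levels of different genes can be set side by side without a correction for length. After 11 libraries with fewer than 1000000 counts were left out, brain had 38 female and 39 male libraries, gills 36 and 36, and liver 35 and 32. Each library is 1 tissue of 1 fish, so the spread between libraries includes the spread between fish.

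The insulin-like growth factors are peptide hormones related to insulin. In vertebrates, growth hormone from the pituitary acts on its receptor in the liver, which releases igf1 into the blood, and many tissues also make igf1 for local use. Most of the circulating hormone is held by binding proteins, which lengthen its life in blood and limit or direct its access to the receptor. In fish, binding proteins of type 1 are known as inhibitors that rise with fasting and stress, and those of type 2 are a common form in plasma. Type 3 is the main carrier in mammalian blood, type 5 also binds the extracellular matrix and in zebrafish igfbp5a acts in ionocytes, and type 7 binds the hormone weakly and is known in mammals from vessel walls.

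Totals of the libraries kept ran from 4351992 to 28095335 counts, and levels are given as counts per 1000000 counts of the library (CPM). The tissue labels were checked with marker genes. The summed level of 8 brain markers was 4945 to 10460 CPM in brain and at most 318.9 CPM elsewhere. The sum of 5 gill markers was 140.9 to 871.3 CPM in gills and at most 153.2 CPM elsewhere, so that 1 female gill library (replicate 24) fell within the range of brain. The sum of 7 liver markers was 10500 to 190200 CPM in liver, but it reached 10700 CPM in brain. The sum of 6 pituitary markers in brain ran from 6.33 to 15390 CPM, so some brain samples held next to no pituitary RNA. The sum of 6 striated muscle markers was 448.3 to 10110 CPM in gills. In 6 libraries an earlier look at these data had found sex-linked or yolk genes against the label, namely the libraries labelled male brain 12, male gills 11, male liver 32 and 35, and female liver 17 and 23. They are called doubtful in what follows. The brain and gill libraries among them came from the same fish, and each liver from another fish whose other libraries are not among the 6. Whether these livers were joined to the right fish was not tested. Egg-yolk precursor vtg3, which the liver makes in females, stood at 5395 and 11580 CPM in the livers labelled male 32 and 35, against 6.80 to 333 CPM in the other males. It stood at 40.4 and 15.2 CPM in the livers labelled female 17 and 23, against 167 to 15320 CPM in the other females. Results in these tissues are given with these libraries, and without them where they matter.

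Each tissue had its own leading genes among the 6. In brain, igfbp3 (34.4 CPM ± 10.6, SD, n = 77), igfbp2a (31.0 ± 9.07) and igf1 (28.7 ± 10.7) were close together, and their ranges overlapped almost fully. In gills igfbp7 (84.1 CPM ± 36.9, SD, n = 72) led and igfbp5a (47.6 ± 19.7) came next. In liver igfbp2a led at 174 CPM ± 113 (SD, n = 67), which placed it at rank 464 of the 22415 genes with counts in that tissue. As a share of the summed counts of the 6 genes, igfbp2a took a median of 66.0% in female and 84.8% in male livers, and igfbp7 took 45.3% and 47.1% in gills. The summed level was 109 CPM ± 22.4 in female and 114 ± 22.6 in male brains, and 181 ± 49.3 and 179 ± 56.6 in gills. In liver it was 181 ± 103 in females and 344 ± 280 in males. In bulk tissue, fewer cells of a type and less RNA per cell cannot be told apart.

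**Figure D1:**
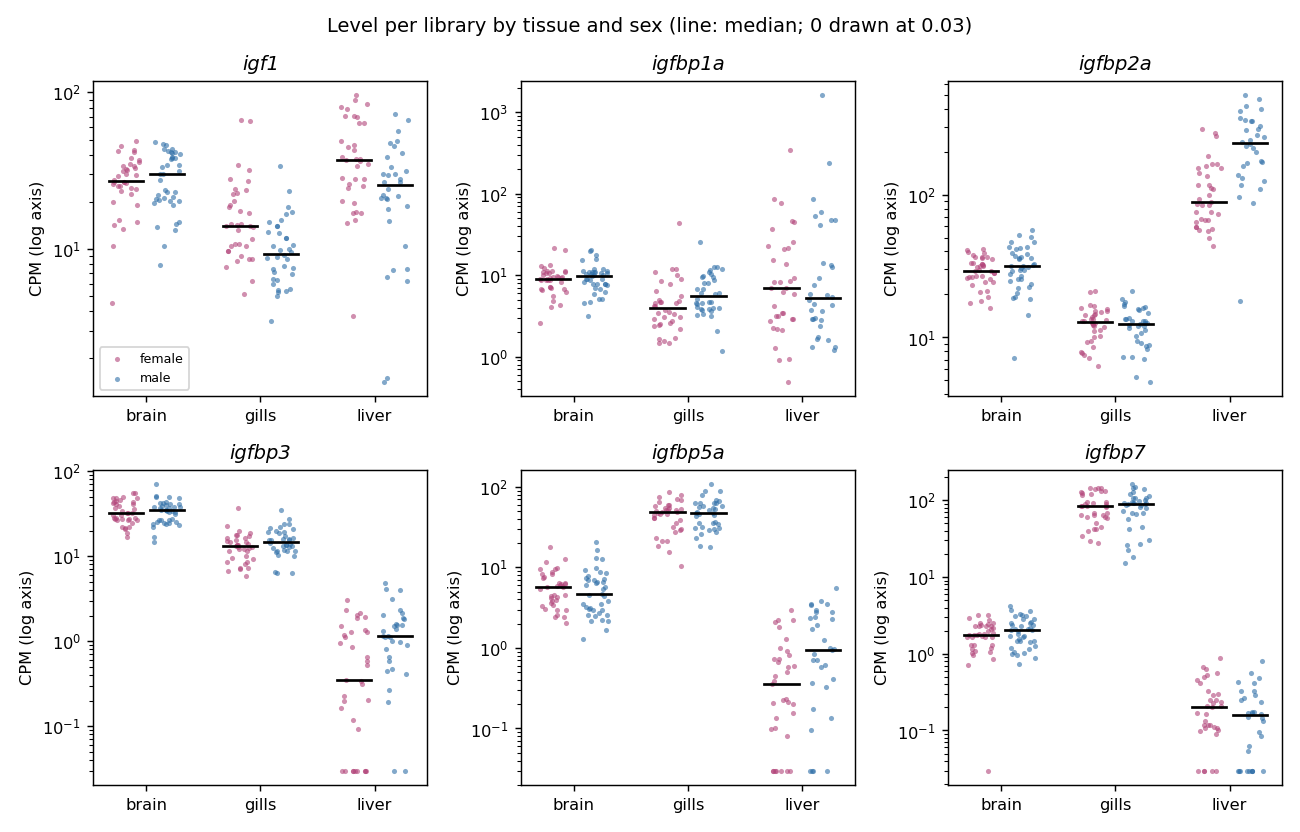
Level of each of the 6 genes in every library kept, by tissue (x axis) and sex (colour), in CPM on a log axis with lines at the medians and a level of 0 drawn at 0.03. Both igfbp5a and igfbp7 are highest in gills and igfbp2a is highest in liver, where male livers sit mostly above female livers.

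Tissues were compared within fish, in an edgeR quasi-likelihood fit over all libraries with a term for each fish. All 6 genes differed in each of the 3 tissue pairs, in a background where 85.5% of the 20039 genes tested differed between gills and brain, 86.1% between liver and brain, and 81.2% between liver and gills. The share is near the background and says nothing particular of these genes. In plain CPM, igfbp5a and igfbp7 were higher in gills than in brain in 69 of 69 fish. In the fit igfbp7 was 44.3-fold higher in gills (log2 difference 5.47 ± 0.15, SE, adjusted p = 4.36e-71) and igfbp5a 8.58-fold higher (3.10 ± 0.17, adjusted p = 2.62e-39). The other 4 genes were lower in gills than in brain, igf1 by 2.16-fold, igfbp1a by 1.88-fold, igfbp2a by 2.44-fold and igfbp3 by 2.35-fold. Of all genes tested 43.1% were higher in gills and 42.4% in brain. Of these, igfbp2a and igfbp3 were lower in 68 of 69 fish, igf1 in 60 and igfbp1a in 57.

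Comparisons with liver depended on the scaling. With trimmed-mean (TMM) scaling the median gene tested differed by -0.30 on the log2 scale between liver and brain and by -0.23 between liver and gills, and with library totals by -2.05 and -1.97. Of the genes called between liver and brain, 7435 were higher in liver and 9820 in brain with TMM scaling, against 2247 and 16471 with library totals. On either scale igfbp2a was higher in liver than in brain, 18.3-fold with TMM scaling (log2 difference 4.19 ± 0.10, SE, adjusted p = 3.54e-77) and 5.09-fold with library totals. It was higher in liver than in brain in 63 of 64 fish by CPM, and higher than in gills in 62 of 62. On either scale igfbp3 was lower in liver than in brain, 10.8-fold with TMM scaling and 36.6-fold with library totals, and in 64 of 64 fish. Brain was also above liver for igfbp5a, by 1.99-fold with TMM scaling and in 60 of 64 fish, and for igfbp7, by 2.54-fold and in 63 of 64 fish.

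The ligand itself did not hold its place across scalings. With TMM scaling igf1 was 3.74-fold higher in liver than in brain (log2 difference 1.90 ± 0.13, SE, adjusted p = 1.73e-28), but with library totals the difference was 0.08 ± 0.14 (adjusted p = 0.556). The igf1 call held in 5 of 6 other settings, and library totals were the exception. By CPM, which is the scale of library totals, igf1 was higher in liver than in brain in 36 of 64 fish. So liver and brain cannot be ordered for this gene without a choice of scaling. Against gills, liver was higher on both scales, 8.07-fold and 2.30-fold, and in 50 of 62 fish. For igfbp1a the liver exceeded brain 3.53-fold with TMM scaling but was at -0.01 ± 0.19 (adjusted p = 0.974) on the log2 scale with library totals. It was higher in liver than in brain in 24 of 64 fish.

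Sex was the factor of the study. In brain none of the 6 genes passed the test of females against males (edgeR quasi-likelihood test with Benjamini-Hochberg adjustment over the 18392 genes tested), where 7.22% of all genes did. None of the 6 reached an unadjusted p of 0.05 in brain, and neither limma-voom nor DESeq2 called one. The largest of the 6 log2 differences was that of igfbp7, -0.21 ± 0.15 (SE, adjusted p = 0.659), and the interval for igf1 ran from -0.32 to 0.19. Female brains held igf1 at 4.48 to 48.8 CPM with a median of 27.2, and male brains at 7.91 to 48.4 CPM with a median of 30.0.

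In gills igf1 alone of the 6 genes passed, against 13.5% of the 17654 genes tested, or 6.02% for genes higher in females. Its lowest, median and highest levels were 5.14, 14.1 and 66.6 CPM in 36 females and 3.47, 9.31 and 34.1 CPM in 36 males. The groups overlapped widely, yet 29 of 36 females were above the male median and 7 of 36 males above the female median. The fit gave 1.74-fold higher levels in females (log2 difference 0.80 ± 0.18, SE, adjusted p = 0.000673). The 3 highest values, all above every male, came from females. Striated muscle markers, which were common in gills, had a median sum of 1857 CPM in females and 2021 CPM in males, and their part in this result was not tested.

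The gill binding protein genes did not pass. The leading gene igfbp7 had medians of 84.9 CPM in females and 90.0 CPM in males, and its log2 difference was 0.04 ± 0.17 (adjusted p = 0.918). For igfbp5a the medians were 48.1 and 47.3 CPM and the difference was -0.05 ± 0.15 (adjusted p = 0.878), and for igfbp2a it was 0.07 ± 0.10. For igfbp3 the difference was -0.20 ± 0.11 (adjusted p = 0.293). For igfbp1a it was -0.25 ± 0.23 (adjusted p = 0.543) with all libraries, but without the highest library, female gills 24, it was -0.54 ± 0.19 (adjusted p = 0.0421), higher in males. Leaving out the highest value, a female one, moves the difference towards males by construction, so this call is not read as a result. By CPM over all gill libraries, 26 of 36 males were above the female median of igfbp1a and 10 of 36 females above the male median. A shift towards males was thus seen in the counts of fish, but the main test did not call it. In gills igfbp1a did not pass under limma-voom (adjusted p = 0.0978) or in edgeR with the replicate number as a block (adjusted p = 0.151).

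In liver 2 of the 4 genes tested passed, in opposite directions, where 39.2% of the 13447 genes tested passed, 16.1% higher in females and 23.1% higher in males. The filter on low counts left out igfbp5a and igfbp7. The summed level of the 7 liver markers also differed, with a median of 28270 CPM in female and 123700 CPM in male livers. One gene, apoa2, weighs most in this sum, with a mean of 55860 CPM over all livers, and the next was tfa at 8231 CPM. The markers were not compared by sex one by one, and their part in the liver results was not tested. The median of all genes tested lay at -0.12 on the log2 scale, or at -0.51 when library totals were used in place of TMM scaling. All genes called split into 2164 higher in females and 3107 in males with TMM scaling, and into 1017 and 6791 with library totals.

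The ligand was higher in females. Its lowest, median and highest levels were 3.70, 37.3 and 95.8 CPM in 35 female livers and 1.41, 25.5 and 73.3 CPM in 32 male livers. The ranges overlapped, with 25 of 35 females above the male median by CPM and 32 of 35 after TMM scaling. The fit gave igf1 1.94-fold higher in females (log2 difference 0.96 ± 0.23, SE, adjusted p = 0.000524). With library totals the difference was 0.63 ± 0.24 (adjusted p = 0.0229), and without the 4 livers whose vtg3 went against the label it was 1.18 ± 0.23 (adjusted p = 1.48e-05).

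Of the binding protein genes of the rule, igfbp2a had the highest level in liver, and it was higher in males. Its lowest, median and highest levels were 43.6, 89.3 and 290.2 CPM in females and 18.1, 229.5 and 496 CPM in males. Here 30 of 32 males were above the female median, 3 of 35 females were above the male median, and 10 males were above every female. The fit gave 1.74-fold higher levels in males (log2 difference female minus male -0.80 ± 0.18, SE, adjusted p = 0.000162). The value was -1.10 ± 0.19 with library totals and -0.86 ± 0.18 without the 4 livers. The male liver with the highest igfbp2a, replicate 27, also held the most striated muscle RNA of all livers (1237 CPM over 6 markers). Without it the difference was -0.73 ± 0.17 (adjusted p = 0.000551).

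**Figure D2:**
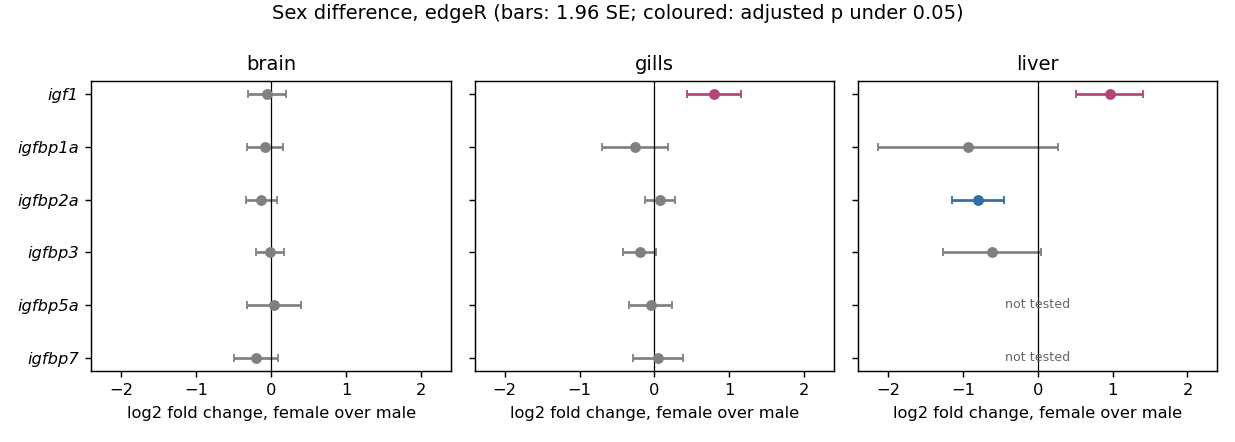
Log2 fold change of females over males for each gene tested in each tissue, with bars of the 95% interval and colour where the adjusted p was under 0.05. Only igf1 in gills (0.80), igf1 in liver (0.96) and igfbp2a in liver (-0.80) are coloured.

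Because the pair was called in opposite directions in these same livers, the ratio of igfbp2a to igf1 counts differs by sex by construction. The ratio does not depend on scaling. Its lowest, median and highest values were 0.974, 2.93 and 14.95 in females and 1.31, 9.02 and 68.9 in males. In 31 of 32 males the ratio was above the female median, and in 1 of 35 females it was above the male median. For igfbp2a alone by CPM these counts were 30 of 32 and 3 of 35, so the gain was small. The lowest male ratio, 1.31, belonged to the liver labelled male 32, which carried female levels of vtg3, with igf1 at 66.5 CPM and igfbp2a at 87.2 CPM. The livers labelled female 17 and 23, with vtg3 at male levels, held igfbp2a at 165 and 271 CPM, both above the female median, and their ratios were 8.41 and 7.99. The liver labelled male 35, with the highest vtg3 of these, had a ratio of 5.67, above the female median and below the male median. The ratio was formed after the levels of both genes had been seen, and it is given without a test.

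**Figure D3:**
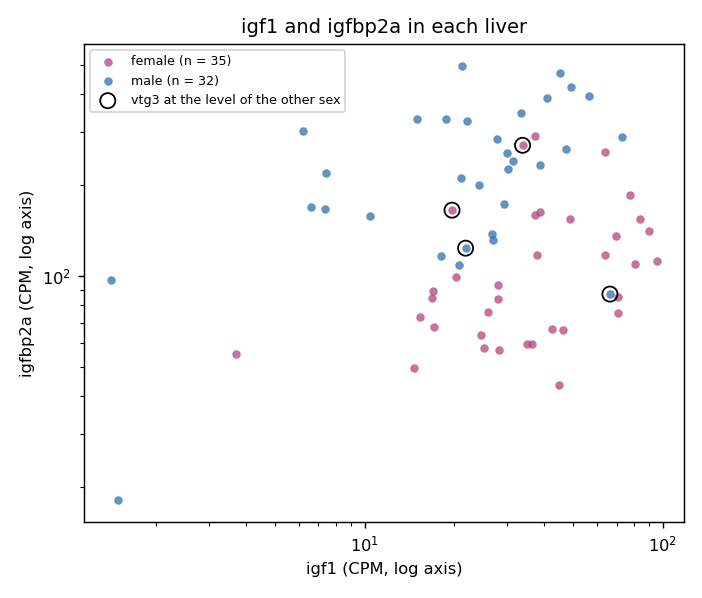
Level of igfbp2a against igf1 in each of 67 livers, in CPM on log axes, coloured by the labelled sex, with rings on the 4 livers whose vtg3 was at the level of the other sex. Male livers lie to the upper left of female livers, with median igfbp2a levels of 229.5 and 89.3 CPM.

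Among the other liver genes, igfbp1a had medians of 6.88 CPM in females and 5.19 CPM in males. Its fitted difference of -0.93 ± 0.61 (adjusted p = 0.230) rested on 1 male liver, replicate 17, and without it was 0.41 ± 0.54 (adjusted p = 0.577). With library totals and all livers it was -1.57 ± 0.64 (adjusted p = 0.0304). For igfbp3, which was listed at 0 in 9 of 35 female and 2 of 32 male livers, the median was 0.348 CPM in females and 1.15 CPM in males. Its difference was -0.61 ± 0.33 (adjusted p = 0.138). The call changed with the method, with -0.90 ± 0.39 under library totals (adjusted p = 0.0430) and -0.87 under limma-voom (adjusted p = 0.0367). Tested without the filter, igfbp5a was at -0.88 ± 0.37 (adjusted p = 0.0631) and igfbp7 at 0.85 ± 0.39 (adjusted p = 0.0885). Over all livers kept, igfbp5a rested on 989 counts and igfbp7 on 171.

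Whether the sexes differed by another amount in another tissue was tested as an interaction in the fit with a term for each fish. Between liver and brain 4 of the 6 genes passed, where 27.3% of all genes did. The count is not read as an excess over that share, as 2 of the 4 calls are set aside below. The female-to-male difference of igf1 was greater in liver than in brain by 1.17 ± 0.26 on the log2 scale (SE, adjusted p = 0.000233), and that of igfbp2a was shifted towards males in liver (-0.61 ± 0.19, adjusted p = 0.00935). The other 2 were genes of low level in liver, igfbp5a (-1.03 ± 0.37, adjusted p = 0.0259) and igfbp7 (1.05 ± 0.38, adjusted p = 0.0286). The filter on low counts had left both out of the liver fit. They entered the joint fit by their counts in gills and brain, so their calls are not read as sex differences in liver. Of the 4 genes, igf1 kept the call in all 6 other settings. The other calls were lost in some, igfbp2a (-0.39, adjusted p = 0.267) and igfbp5a (adjusted p = 0.0801) when libraries under 1000000 counts were included, igfbp5a also under limma-voom (adjusted p = 0.0676), and igfbp7 with library totals (adjusted p = 0.107).

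Between liver and gills 1 gene passed, igfbp2a (-0.89 ± 0.19, adjusted p = 0.000108), where 27.1% of all genes did. The igf1 difference was not shown to differ between liver and gills (0.36 ± 0.27, adjusted p = 0.345, interval -0.17 to 0.88). Between gills and brain no gene of the 6 passed, where 0.349% of all genes did. The value for igf1 was 0.81 ± 0.25 with an unadjusted p of 0.00175 and an adjusted p of 0.170, and limma-voom and the edgeR fit without fish also called none of the 6.

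In liver the gene with the widest spread of the 6 was igfbp1a, the inhibitory type. There it ran from 0.490 to 1612 CPM around a median of 5.82, a highest value 277 times the median, against 9.37 times for igfbp5a, the next of the 6 in liver. In gills the highest igfbp1a was 9.496 times the median. In brain it was 2.39 times, below the 3.77 times of igfbp5a. Only 3 livers exceeded 100 CPM. They were the male liver replicate 17 at 1612 CPM, the female replicate 25 at 341 CPM and the male replicate 21 at 236 CPM. At the other end, 23 of 35 female and 21 of 32 male livers were under 10 CPM.

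A fish with a high liver level tended to be high in its gills as well. In 62 fish with both tissues, log2 levels of igfbp1a, each taken from the mean of its sex, had a Pearson r of 0.54 (permutation adjusted p = 0.00014, the smallest the test can give here) and a Spearman rho of 0.40 (permutation adjusted p = 0.0194). Without the 2 fish farthest from the median r was 0.43 and rho 0.36 (permutation adjusted p of rho = 0.0755). Within sexes, a split chosen after seeing the data, r was 0.77 in 33 females and 0.24 in 29 males (permutation adjusted p = 0.444), and the difference between the sexes was not tested. Between brain and gills r was 0.43 (rho 0.36, n = 69, permutation adjusted p = 0.00189), and without the 2 extremes r was 0.39 and rho 0.31 (permutation adjusted p of rho = 0.0834). Without the 6 doubtful libraries r was 0.55 for gills and liver and 0.39 for brain and gills. Between brain and liver r was 0.30 (rho 0.15, n = 64, permutation adjusted p = 0.0772).

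These were the 2 pairs past the threshold among 14 of the same kind, the other 4 binding protein genes and igf1 included, each gene in the tissues where it was tested. The female with liver replicate 25 also had the highest gill level, 43.6 CPM in replicate 24, and the second highest brain level, 20.6 CPM. Its gill library had the lowest summed gill markers (140.9 CPM) and the highest liver markers among females (853 CPM), and the part of this makeup in the gill value was not tested. The male with liver replicate 21 ranked 4 of 72 in gills with 12.7 CPM and 5 of 77 in brain with 17.8 CPM. The male with liver replicate 17 had no gill library and ranked 7 of 77 in brain with 15.4 CPM.

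**Figure D4:**
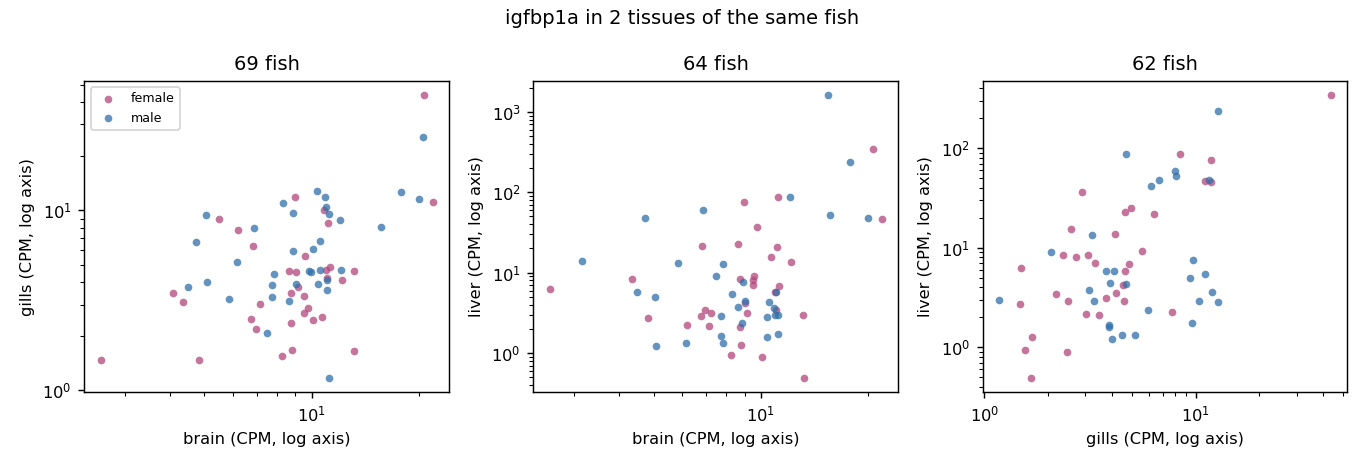
Level of igfbp1a in 2 tissues of the same fish, for the 3 tissue pairs, in CPM on log axes and coloured by sex. The pair of gills and liver (62 fish) shows the joint rise that gave r = 0.54, and the pair of brain and liver (64 fish) gave 0.30.

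With TMM scaling, igf1 and the binding proteins varied mostly apart in liver within a sex. Of 6 correlations of igf1 with igfbp1a, igfbp2a or igfbp3 within females or males, 1 passed, that with igfbp2a in 32 males (r = 0.59, permutation adjusted p = 0.00522, rho = 0.42, permutation adjusted p = 0.114). Without the 2 males of most extreme igf1 level r was 0.20. Without the 2 doubtful male livers r was 0.67 and rho 0.53 (permutation adjusted p = 0.0179), and r was 0.34 without the 2 extremes of those left. In 35 females the same pair had r = 0.045 after TMM scaling, and 0.42 (permutation adjusted p = 0.0248) with library totals. For igf1 and igfbp3 in females r was 0.14 after TMM scaling. With library totals it was 0.47 (permutation adjusted p = 0.0106), with a rho of 0.53 (permutation adjusted p = 0.0084). In males that pair was at -0.04 with library totals, and igfbp1a did not pass in either sex. The female correlations thus depended on the scaling, and the cause was not tested.

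In female liver vtg3 was used as a measure of yolk production. The 2 livers labelled female with vtg3 near male levels stood apart, so the relation was taken over the other 33. There igfbp2a was lower where vtg3 was higher (r = -0.42, permutation adjusted p = 0.0275, rho = -0.33, permutation adjusted p = 0.128), and r was -0.22 without the 2 farthest of these. Over all 35 livers rho was -0.41 (permutation adjusted p = 0.0286) with TMM scaling and -0.45 (permutation adjusted p = 0.0283) with library totals, where r without the 2 farthest of the 35 was -0.55. For igfbp3 over the 33 livers r was -0.39 (permutation adjusted p = 0.0275) and rho -0.58 (permutation adjusted p = 0.00192), and r was -0.48 without the 2 farthest. Levels of igfbp3 in female livers lay near the floor and were 0 in some, as 3 counts stand for 0.307 CPM at the median total. The relation of igfbp3 depended on the livers, the measure and the scaling. Over all 35 livers with TMM scaling its r was -0.21 and did not pass (permutation adjusted p = 0.332). There its rho was -0.53 (permutation adjusted p = 0.00652), against -0.07 (permutation adjusted p = 0.689) with library totals. There were 4 correlations with vtg3, and those of igf1 and igfbp1a did not pass.

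Other genes of the growth hormone and insulin-like growth factor pathway were taken from a list of 61 names, of which 34 were in the tables. In liver 27 were tested, and 6 were higher in females, 8 were higher in males and 13 did not pass, where 16.1% of all genes tested were higher in females and 23.1% in males. When libraries under 1000000 counts were included, 6 and 2 of 25 passed, and with library totals 2 and 14 of 27. The median difference of the 27 was -0.27 against -0.12 for all genes tested. Receptor genes were among the 8 higher in males. The growth hormone receptor genes ghra (50.6 CPM ± 42.02 in 35 females and 121.5 ± 50.04 in 32 males, log2 difference -0.99 ± 0.18, adjusted p = 4.05e-06) and ghrb (-0.58 ± 0.17, adjusted p = 0.00526) were both higher in males. So were jak2a, a kinase bound to that receptor (-1.04 ± 0.18, adjusted p = 2.03e-06), and the insulin receptor gene insrb (-0.59 ± 0.16, adjusted p = 0.00219). Their relatives in the list did not pass, jak2b at 0.16 ± 0.14 (adjusted p = 0.363) and insra at 0.10 ± 0.21 (adjusted p = 0.7275). The igf1 receptor gene igf1rb, named outside the rule of smallest p because it is the receptor of igf1, was low in liver, 1.90 CPM in females and 4.37 CPM in males (-0.89 ± 0.30, adjusted p = 0.0138).

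On the female side, foxo3b, a transcription factor held back by insulin signalling, was 2.91-fold higher in females (129 CPM ± 72.4 against 58.1 ± 33.3, log2 difference 1.54 ± 0.19, adjusted p = 5.82e-10). The insulin receptor substrate gene irs2b was 1.98-fold higher (adjusted p = 1.97e-05), and igf2r, a receptor that clears the related factor 2 in mammals, was 1.81-fold higher (adjusted p = 0.000140). The kinase gene akt1 was 1.37-fold higher (adjusted p = 0.000955). Also higher in females was stat5a (log2 difference 0.50 ± 0.19, adjusted p = 0.0292), while foxo1a, a relative of foxo3b, was higher in males (-0.45 ± 0.15, adjusted p = 0.0151). The split depended on scaling, and with library totals 2 list genes, foxo3b and irs2b, were higher in females and 14 higher in males. So igf1 was on the female side in both scalings while ghra and ghrb were on the male side in both.

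**Figure D5:**
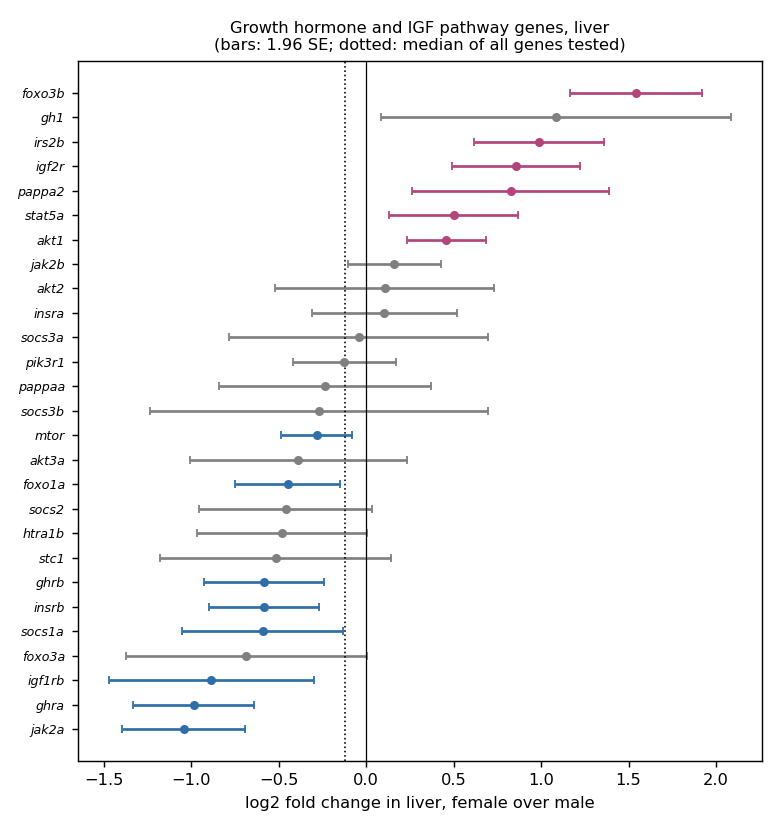
Log2 fold change of females over males in liver for the 27 listed pathway genes tested, with bars of the 95% interval, colour for adjusted p under 0.05 and a dotted line at the median of all genes tested (-0.12). The growth hormone receptor genes ghra (-0.99) and ghrb (-0.58) lie on the male side and foxo3b (1.54) on the female side.

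Outside liver few of the listed genes passed, as did few of all genes (7.22% in brain and 13.5% in gills). In brain 31 were tested, with 1 higher in females and 1 in males. The latter was ghrh, the hypothalamic releasing hormone of growth hormone, at 1.73 CPM ± 0.717 in 38 females and 6.46 ± 3.29 in 39 males (3.75-fold, adjusted p = 6.02e-16), and the former was igf2r (1.34-fold, adjusted p = 0.00372). Pituitary markers had median sums of 6660 CPM in female and 4776 CPM in male brains, and their part in these differences was not tested. In gills, where igf1 was higher in females, 29 were tested, with foxo3b higher in females (log2 difference 0.26, adjusted p = 0.00334), and foxo1a (-0.26, adjusted p = 0.0161) and foxo3a (-0.57, adjusted p = 0.0311) higher in males. With the replicate number as a block, which does not pair the sexes, the last 2 did not pass (adjusted p = 0.0929 and 0.0658). The median difference of the list was 0.03 in brain and -0.04 in gills, against -0.03 and 0.01 for all genes tested.

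A list of 33 names of fasting and glucocorticoid responsive genes, of which 19 were in the tables, was read beside igfbp1a. In liver all 19 were tested, with 3 higher in females, 8 in males and 8 not past the test, and a median of -0.16. Of all genes 39.2% passed, 16.1% higher in females and 23.1% in males. The split was 2 and 10 with library totals, 4 and 6 under limma-voom and 4 and 8 without the doubtful libraries. It was 1 and 4 of 11 when 10 counts were asked in every library. Higher in males were pdk4, which spares glucose by blocking pyruvate use (28.9 CPM ± 18.2 in females and 87.1 ± 41.1 in males, 2.32-fold, adjusted p = 1.82e-09), and g6pc1a.1, an enzyme of glucose release (1.64-fold, adjusted p = 7.57e-05). The clock gene per1b (2.49-fold) and the lipase inhibitor gene angptl4 (1.87-fold) were higher in males too, as were cebpb (2.03-fold), a liver transcription factor, and hsd11b2, a cortisol-inactivating enzyme (3.63-fold). Higher in females was cpt1b, for fatty acid entry into mitochondria (108.5 CPM ± 110 against 6.78 ± 34.9, 18.5-fold, adjusted p = 9.62e-06), and its relative cpt1ab (2.54-fold). The male SD of cpt1b far exceeded the male mean, so that mean and the fold are not those of a typical male. Among the livers of highest igfbp1a, males 17, 21 and 24 held cpt1b at 0.143, 0.248 and 0.968 CPM. In gills 4 of 17 passed, all higher in females, namely cpt1ab, cpt1b, tsc22d3 and ddit4. Of all genes 13.5% passed there, and 6.02% were higher in females. With library totals 2 of 17 passed, as tsc22d3 (adjusted p = 0.0504) and ddit4 (adjusted p = 0.0692) did not, and 1 of 14 when 10 counts were asked in every library. In brain 3 of 18 passed, where 7.22% of all genes did, cpt1ab and hsd11b2 higher in females and angptl4 in males. Under limma-voom angptl4 did not pass (adjusted p = 0.0540), nor with the replicate block (adjusted p = 0.0586).

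In the 3 livers with the highest igfbp1a, 4 of the 19 fasting list genes were above the median of all livers in each of the 3, and the other 15 were above it in 1 or 2. The 4 were pck1, fkbp5, ddit4 and nr3c1, named after their values had been seen. In male 17, female 25 and male 21, fkbp5, a glucocorticoid-induced partner of the glucocorticoid receptor, was at 719, 453 and 309 CPM, against a median of 116. The gluconeogenic gene pck1 was at 74.3, 47.8 and 43.8 CPM against 10.48, ddit4 at 65.3, 52.8 and 15.2 CPM against 9.60, and nr3c1, the receptor itself, at 4.59, 4.604 and 3.03 CPM against 2.99. By contrast sgk1, a kinase gene induced by serum and glucocorticoids, was at 225.5, 284 and 14.9 CPM against a median of 21.3, so 1 of the 3 was below it. Both tsc22d3 (47.0, 198 and 41.5 CPM against 125) and tat (15.4, 163 and 1.11 CPM against 62.5) were below the median in male 17 and male 21. These libraries were chosen by their igfbp1a level, and the values are a description. The same count was not taken over all genes, so 4 of 19 is not read as a result about the list.

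For each gene, the genes whose log2 levels followed it best were sought in the tissue of its highest mean level, after removal of the mean of each sex, among genes of at least 10 CPM. These r values describe libraries that share scaling and tissue makeup. In 67 livers igfbp1a was followed by sgk1 (r = 0.61), which is also on the fasting list, and ptpn11b (0.60), a phosphatase gene. There igfbp2a was followed by gapdh (0.78), of glycolysis, and isoc2 (0.77), and igf1 by slc10a1 (0.65), a bile acid carrier of liver cells, and LOC120811891 (0.58). In 72 gill libraries igfbp7 was followed by cmtm6 (0.87) and LOC120811227 (0.86), and igfbp5a by tspan2a (0.80) and ndufa4a (0.79), a mitochondrial gene. In 77 brains igfbp3 was followed by LOC120816239 (0.61) and rassf5 (0.59).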

How the data were processed

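For each tissue the authors deposited a table of unnormalised read counts, with genes in rows and libraries in columns. The submitters' processing notes name fastp, STAR and HTSeq without versions, and the sources used here do not give the build, the gene models or whether strand was used in counting. The last 5 lines of each table, reads given to no gene, were left out. Libraries under 1000000 counts (11, the largest with 432259) were left out, and the tissues of a fish were joined by its tag.

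Within a tissue, edgeR 4.0.16 under R 4.3.3 fitted sex alone and tested it by quasi-likelihood, after TMM scaling and filterByExpr by sex, with a dispersion trend and robust fitting. Log2 differences are female minus male, SE come from the F statistic, intervals are 95% normal intervals, and p-values are two-sided and adjusted over all genes tested, with a threshold of 0.05. Tissue differences and interactions came from 1 edgeR fit over all libraries kept with a term for each fish, where the dispersion trend was taken from the means of tissue and sex. Correlations used log2 CPM with a prior count of 2 and two-sided permutation tests with 100000 resamples. P-values reflect the spread between fish of 1 population. Other settings used DESeq2 1.42.0 and limma 3.58.1. The main edgeR fit of sex, the liver against brain interaction and the permutation test were run on simulated data. The tissue contrasts and the other settings were not.

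All genes matching the rule are named. From the 2 lists, genes past the sex test are named, at most the 8 of smallest p per list and tissue. Some list genes are named outside this rule. For each member the 2 genes that follow it best are named. The members, lists and markers were chosen with earlier results of these data known. Replicate numbers in the titles name different fish and do not pair the sexes. A call lost with these numbers as a block therefore cannot decide whether the sexes differ. In the 38 brain, 36 gill and 29 liver pairs the median correlation of same-numbered libraries was -0.03, -0.07 and 0.03.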

Additional observations from a re-analysis of the deposited data

Results flagged for a closer look

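The interaction term of the fit with a term for each fish passed for 5 combinations of gene and tissue pair. Those of igfbp5a and igfbp7 are not read as sex differences in liver. Between liver and brain the female-to-male log2 difference moved by 1.17 for igf1, by -0.61 for igfbp2a, by -1.03 for igfbp5a and by 1.05 for igfbp7. Between liver and gills it moved by -0.89 for igfbp2a. The values for igfbp5a and igfbp7 rest on liver levels near 1 CPM or below, with medians of 0.590 and 0.168 CPM over 67 livers. Both had been left out of the liver fit by the filter on low counts and entered the joint fit by their counts in gills and brain. No explanation was tested.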

How the results depend on the processing

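Sex differences were refitted with other scalings, tests, filters and library sets, and 8 single values changed direction or side of the threshold while 197 did not. Of these alternatives, a term for the series of the fish tag and leaving out libraries under 0.5 times the tissue median were chosen after seeing the data. The calls of igf1 in gills and of igf1 and igfbp2a in liver held in all 13 alternatives each, at 0.68 to 0.84, 0.63 to 1.22 and -1.10 to -0.60. Adding the replicate number as a block changed no call of a member by sex, and the liver value of igfbp1a then was 0.14. That value was 0.38 under limma-voom and 0.41 without male liver 17, and with library totals -1.57 (adjusted p = 0.0304), when 4 of 4 liver genes passed. In gills 2 of 6 passed, counting each gene without its highest library, and igfbp3 in brain then was at 0.0147. The cause was not tested.

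Tissue differences kept 106 of 108 values, the exceptions being igf1 (0.08) and igfbp1a (-0.0103) in liver against brain with library totals. Of the interactions 95 of 108 were kept. Between liver and brain 2 genes passed when no library was left out for depth, and igfbp2a was then at -0.39 (adjusted p = 0.267). Between liver and gills 2 passed, in place of 1, without the fish term, under limma-voom, with library totals and without the 6 doubtful libraries. The interaction of igfbp1a between liver and brain was -0.86 without fish as a replicate block and -0.18 with library totals, and between liver and gills it was -0.71 without the block.

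Of the correlations of igf1 in liver, 3 passed with library totals and 0 without the 2 extremes, when igfbp2a in females was at -0.051. Of those with vtg3, 2 passed without the 2 extremes. These extremes were the 2 doubtful female livers, so leaving out the doubtful libraries is the same check and not a second one. Between tissues of a fish 4 passed with library totals, 4 without the 2 extremes and 0 in males alone. Depth limits igfbp5a and igfbp7 in liver, listed at 0 in 11 and 14 of 67 libraries.

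Among all genes, those called by sex fell to 688 from 1328 in brain, to 1390 from 2378 in gills and to 2668 from 5271 in liver when 10 counts were asked in every library, which left fewer genes to test, and to 1662 in gills with the replicate block. Interactions between gills and brain rose from 70 to 135 without the fish term and 615 under limma-voom, and those between liver and brain from 5472 to 8521 with library totals. Between liver and gills the split of higher and lower calls was 1804 and 3631, and 981 and 6452 with library totals.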
